A study of Homo sapiens with 8 samples.

Results

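The response of the human hepatocellular carcinoma cell line HepG2 to JQ1 was measured over long noncoding RNA (lncRNA) loci. The loci described are the rows of the HepG2 table that held values and averaged at least 0.5 FPKM over its 4 libraries, where FPKM means fragments per kilobase of transcript, scaled to library size. This rule kept 5906 of the 15469 loci with values, among 23161 listed. LXLOC_003615, with a mean of 0.5 FPKM, was just inside the minimum, NEXN-AS1, at 0.4975 FPKM, was just outside it, and 308 loci lay within 0.05 FPKM above it and 295 within 0.05 FPKM below it. The 2 groups were HepG2 cells given DMSO, the vehicle, and HepG2 cells given JQ1, with 2 libraries each, and the same was done in LM3, another liver cancer line used below for comparison. The sources used here do not state the dose of JQ1 or the time of treatment. The labels give no genetic change to the cells. They do not state whether the replicates were grown apart, so the p-values cover the spread between libraries alone and that spread may be technical. Total RNA was depleted of ribosomal RNA and sequenced from both ends. The study's title concerns lncRNAs tied to super-enhancers, and the comparison asks which noncoding loci respond to JQ1.

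JQ1 is a small molecule that occupies the acetyl-lysine pockets of the BET family of bromodomain proteins and so displaces them from acetylated chromatin. The family has a part in transcription by RNA polymerase II, whose passage from pausing into productive elongation needs the kinase complex P-TEFb. Noncoding RNAs come from promoters running divergently from coding genes, from antisense and intergenic starts, from enhancers, and from polymerases that continue past the ends of genes, so that a noncoding locus can report on a neighbouring transcription unit as well as on itself.

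The FPKM of all loci summed to between 29369 and 32765 per HepG2 library, and ribosomal RNA and mitochondrial loci held from 15.3% to 18.1% of it, with both JQ1 libraries above both vehicle libraries. Across loci, Pearson's r was 0.973 between the vehicle libraries, 0.979 between the JQ1 libraries and at most 0.915 between a vehicle and a JQ1 library. H19, an imprinted RNA of fetal liver, stood at 2038, 2249, 2234 and 2101 FPKM in vehicle replicates 1 and 2 and JQ1 replicates 1 and 2. Apart from CPS1-IT1, the other liver markers were low or had no values and gave the label little support. Of 12 listed liver lncRNAs 10 had values and 4 reached the minimum, and without H19 their summed level was 9.55 to 9.79 FPKM with vehicle and 2.75 to 2.84 FPKM with JQ1. Most of the vehicle sum was CPS1-IT1, at 6.84 and 6.79 FPKM with vehicle and 1.33 and 1.22 FPKM with JQ1. Of the 4 tested, CPS1-IT1 and LINC01485 were called lower in limma, and H19 and HULC (adjusted p = 0.439) were not called. HNF4A-AS1, antisense to a master hepatocyte regulator, was at 0.04 FPKM in both vehicle libraries and 0 in both JQ1 libraries. LINC00261 was at 0.48 and 0.64 FPKM with vehicle and 0.05 and 0.08 FPKM with JQ1. LINC01554 went the other way, from 0.21 and 0.21 FPKM to 0.30 and 0.31 FPKM, as did LINC00844 at under 0.1 FPKM. Of 19 lncRNAs listed for other cell types 16 had values, none at 0 in all 4 libraries and 5 below 0.1 FPKM throughout. They summed to 13.2 to 15.1 FPKM with vehicle and 6.46 to 6.68 FPKM with JQ1, FENDRR giving 8.29 and 9.14 FPKM with vehicle and 2.71 and 2.88 FPKM with JQ1. The part of these marker levels in the results was not tested, and in bulk RNA fewer cells of a type and less RNA per cell cannot be told apart.

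Of the 5906 loci, 1480 passed an adjusted p of 0.05 in limma (25.1%). With JQ1 640 were higher (10.8%) and 840 lower (14.2%). Loci that overlap on a strand share reads, and merging them left 592 higher and 747 lower units. Of the loci called higher 170 had a vehicle mean under the 0.5 FPKM minimum, and of those called lower 235 had a JQ1 mean under it. Such loci were tested only because the other group was high, so that counts of them are partly set by the minimum. The balance of rises and falls turned on the scaling, with 809 higher and 786 lower after centring libraries on their medians, 758 and 818 with quantile normalization, and 578 and 952 when ribosomal and mitochondrial loci were taken out of the scale. The number of calls turned on single libraries. Without vehicle replicate 1 the calls were 454 and without vehicle replicate 2 they were 519. Without either JQ1 library limma called 0, although unadjusted p-values under 0.05 numbered 1789 without JQ1 replicate 1 and 1714 without JQ1 replicate 2. This limit holds for every call below.

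**Figure D1:**
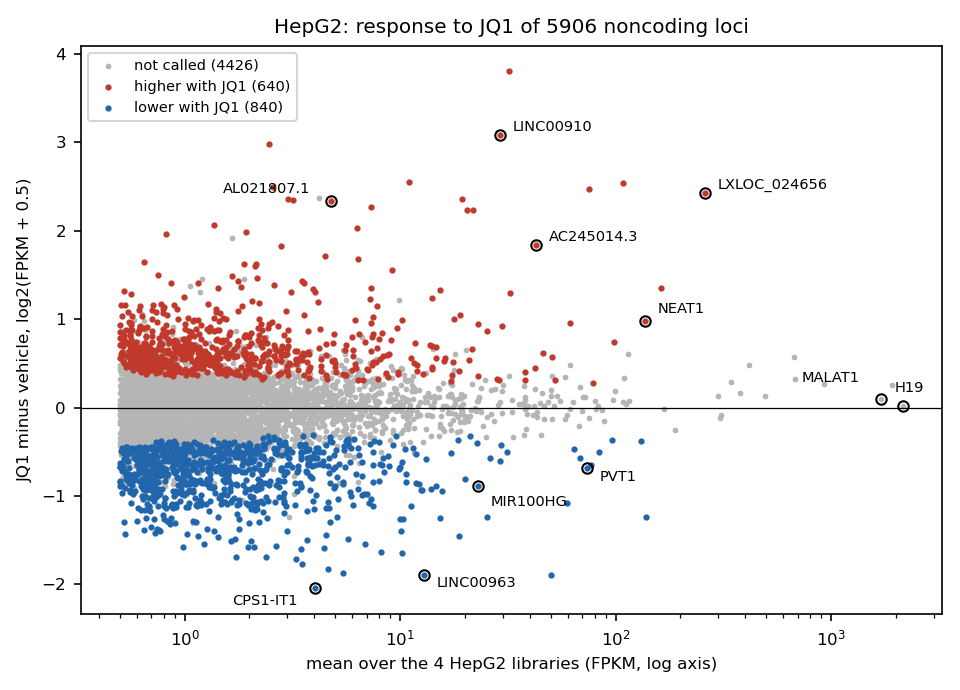
Each point is 1 of 5906 noncoding loci in HepG2, placed by its mean FPKM over 4 libraries on a log axis and by its log2 difference, JQ1 minus vehicle, of FPKM + 0.5. Red loci (640) were called higher, blue loci (840) lower and grey loci (4426) were not called at an adjusted p of 0.05, with H19 and MALAT1 near 0 and LINC00910 at 3.09.

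Many of the largest rises lay at genes for small nuclear and small nucleolar RNAs, the short RNAs of the spliceosome and of ribosomal RNA processing. Those in the first of 2 lists used below are transcribed by RNA polymerase II, which ends their transcripts without polyadenylation. The second list holds short RNA genes transcribed by RNA polymerase III, such as RMRP, RPPH1, RN7SK and RN7SL1. To show how a locus called noncoding sits at such a gene, the first 300 bases of 2 GENCODE 29 transcripts are given 5′ to 3′, with the bases of the small RNA in capitals. Both transcripts begin at base 1 of the small RNA and run on past its end. RNU12 is the U12 RNA of the minor spliceosome, 150 bases long in a transcript of 664 bases. RNVU1-14 is a variant U1 RNA of 164 bases in a transcript of 347 bases.
Z93241.1, over RNU12: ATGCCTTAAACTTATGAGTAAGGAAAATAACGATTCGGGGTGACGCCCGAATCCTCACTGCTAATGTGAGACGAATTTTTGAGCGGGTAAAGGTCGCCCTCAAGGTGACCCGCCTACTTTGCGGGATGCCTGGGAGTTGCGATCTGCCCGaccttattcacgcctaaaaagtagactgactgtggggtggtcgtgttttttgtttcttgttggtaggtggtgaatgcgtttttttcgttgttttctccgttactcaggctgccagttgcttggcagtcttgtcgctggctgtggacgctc
AC245014.3, over RNVU1-14: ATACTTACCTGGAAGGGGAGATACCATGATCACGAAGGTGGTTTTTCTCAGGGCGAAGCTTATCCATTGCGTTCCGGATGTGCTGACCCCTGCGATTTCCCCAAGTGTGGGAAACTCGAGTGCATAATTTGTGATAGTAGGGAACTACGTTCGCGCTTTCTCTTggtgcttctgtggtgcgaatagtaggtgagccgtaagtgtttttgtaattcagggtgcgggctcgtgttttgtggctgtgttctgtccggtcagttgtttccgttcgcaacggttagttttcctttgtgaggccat

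Z93241.1 (chromosome 22, 42615244 to 42615907, plus strand) was at 4.99 and 3.81 FPKM with vehicle and at 12.7 and 15.1 FPKM with JQ1. The log2 change was 1.56 (SE 0.16, adjusted p = 0.00873), or 3.16-fold between the means. AC245014.3 (chromosome 1, 145281116 to 145281462, plus strand) was at 20.7 and 16.4 FPKM with vehicle and 66.9 and 67.5 FPKM with JQ1 (log2 change 1.84, SE 0.13, adjusted p = 0.00615). The groups did not overlap at either locus, as was the case for 66.4% of all loci tested. LXLOC_001485, on the same strand and starting 2677 bases after the start of RNVU1-14, was at 0.55 and 0.32 FPKM with vehicle and 4.74 and 4.72 FPKM with JQ1. Reads of the small RNA and of the lncRNA over it cannot be told apart here, and U1 variants are near-identical copies, so their values are uncertain.

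The pattern was read over 2 lists of small RNA genes written after these values were seen, so the counts describe it and are no independent support. Of the 8 loci counted first below, 2 had a vehicle mean under the minimum. Of all tested loci 10.8% rose and 14.2% fell. Within 10 kb of the listed polymerase II genes lay 26 tested loci, of which 13 rose, 2 fell and 11 were not called. All 8 that ran on the strand of the small RNA and started at or after its first base rose, by a median of 1.83 against -0.0056 for all loci. They were also 8 of 8 under each scaling and without either vehicle library, and their median was 1.78 and 1.89 without JQ1 replicates 1 and 2, where nothing was called. Besides the loci named, they were ENSG00000287979 at RNVU1-19, ENSG00000287190 at RNVU1-6, LXLOC_013953 at RNU4-2, LXLOC_024174 over the SNORD3 genes of U3 RNA, and LXLOC_052647 after SNORD13. ENSG00000287979 was at 6.03 and 5.90 FPKM with vehicle and 32.6 and 33.0 FPKM with JQ1 (log2 change 2.36, adjusted p = 0.00144). LXLOC_013953, which starts with the U4 RNA, went from 1.03 and 0.86 FPKM to 5.03 and 4.24 FPKM (1.83, adjusted p = 0.00587). LXLOC_024174 went from 7.87 and 6.74 FPKM to 36.1 and 36.4 FPKM (2.24, adjusted p = 0.00262).

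Of 8 loci on the opposite strand only, 0 rose and 1 fell, BX284668.5 near RNU1-2 (-0.43, adjusted p = 0.0242). LXLOC_024174 also lies opposite SNORD3A and SNORD3B-1 and was counted once, with SNORD3C, whose first base it starts at. The opposite-strand counts are small and lie near the shares of all loci, 10.8% higher and 14.2% lower. The difference between the strands was not tested. Of 10 same-strand loci that started upstream of the small RNA gene, 5 rose. These were AL021155.2 across RNU5E-1, the U5 RNA gene (4.08 and 4.20 FPKM to 10.04 and 10.65 FPKM), and 4 loci of the U2 array. LINC00623, a long locus with RNVU1-4 inside it, fell (-0.83, adjusted p = 0.0102), and LINC01138, which spans RNVU1-1, was at 2.75 and 3.07 FPKM with vehicle and 3.15 and 2.43 FPKM with JQ1. Near polymerase III genes 0 of 6 loci were called, beside 25.1% of all tested loci, and 0 had an unadjusted p under 0.05. RMRP, the RNA of RNase MRP, was at 355 and 266 FPKM with vehicle and 406 and 351 FPKM with JQ1 (0.29, SE 0.17, adjusted p = 0.268). AL355075.4, over the RNase P RNA gene RPPH1, was at 595 and 356 FPKM with vehicle and 440 and 576 FPKM with JQ1, so that its groups overlapped. Only 6 loci were measured there. Of these, 2 ran on the strand of the gene from its first base on, 2 started upstream and 2 lay on the opposite strand. They are therefore not matched in position to the 8 polymerase II loci counted first. Replicates spread widely, and the difference between the lists was not tested.

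**Figure D2:**
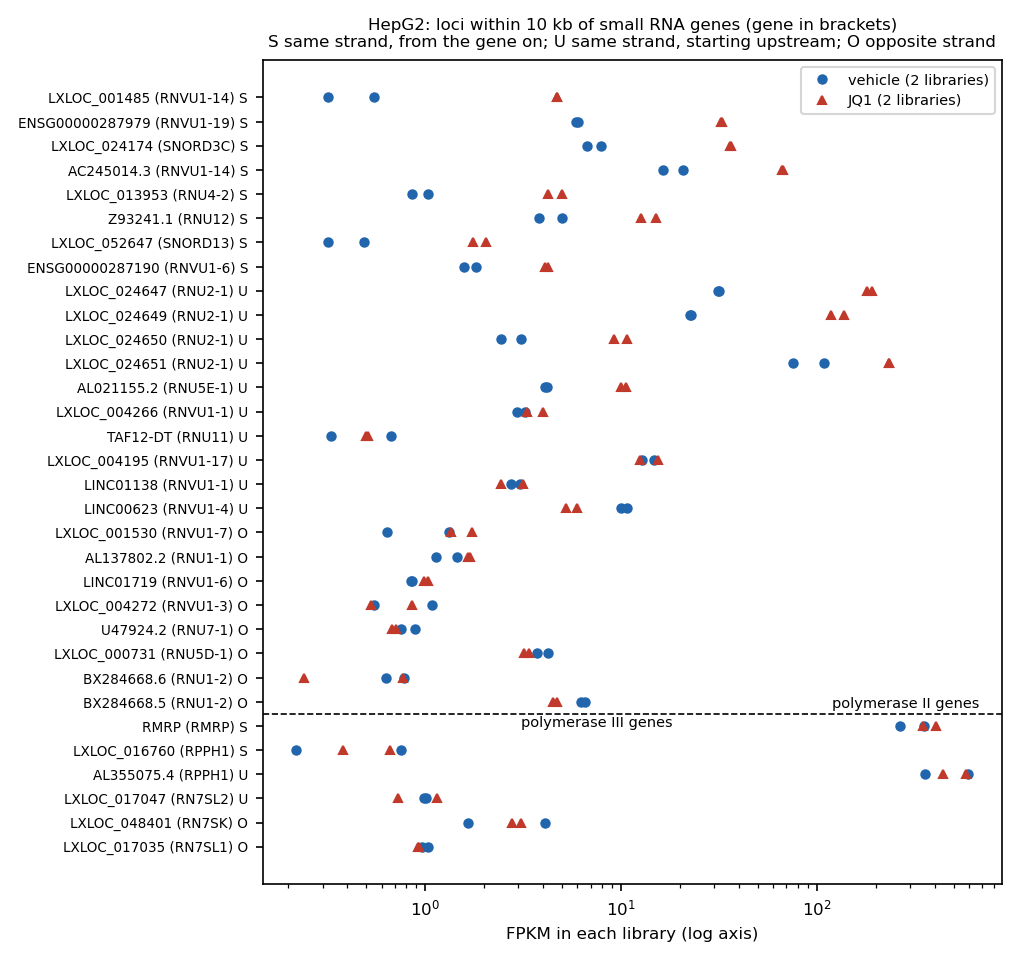
FPKM in each HepG2 library on a log axis for the 32 loci within 10 kb of listed small RNA genes, with vehicle as blue circles and JQ1 as red triangles, above the dashed line for RNA polymerase II genes and below it for RNA polymerase III genes. In the 8 top rows, loci on the strand of the gene that start at or after its first base, both JQ1 libraries lie above both vehicle libraries.

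The U2 genes lie as tandem copies on chromosome 17, and 8 loci within and next to them rose. LXLOC_024656 (chromosome 17, 43264788 to 43295344, minus strand) was the most abundant, at 79.7 and 83.7 FPKM with vehicle and 419.8 and 461 FPKM with JQ1 (log2 change 2.42, SE 0.084, adjusted p = 0.00194). LXLOC_024647, which spans RNU2-1, rose 5.89-fold, from 31.7 and 31.5 FPKM to 179.7 and 193 FPKM. LXLOC_024665 (chromosome 17, 43324331 to 43361361, minus strand) had the largest rise of any tested locus on the log2(FPKM + 0.5) scale, from 4.16 and 3.53 FPKM to 58.8 and 61.3 FPKM (3.80, SE 0.097, adjusted p = 0.00144). LINC00910, which overlaps it, was at 5.98 and 5.48 FPKM with vehicle and 51.7 and 53.2 FPKM with JQ1. LXLOC_023196 on the other strand also rose, from 2.97 and 2.75 FPKM to 18.7 and 19.6 FPKM. Because the U2 copies are near-identical and several of these loci overlap, they are not independent measurements. Outside these regions the largest rise belonged to AP000692.2, antisense to MORC3, a nuclear body protein gene (chromosome 21, 36319792 to 36320670), from 0.25 and 0.09 FPKM to 4.41 and 5.11 FPKM (2.98, SE 0.16, adjusted p = 0.00447). With a pseudocount of 0.1 it ranked above LXLOC_024665, at 4.23 against 3.94.

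Replication-dependent histone genes share with small nuclear RNA genes an end that is not polyadenylated. They make the histones of new chromatin in S phase, and their messages end in a stem-loop. Of 16 loci that overlap or start within 10 kb of such a gene 10 rose, 0 fell and 6 were not called, with a median of 0.73. Of all tested loci 10.8% rose and 14.2% fell. Of the 16 loci, 4 had a vehicle mean under the minimum. By position against any coding gene, a histone gene or not, all 7 loci downstream of one or overlapping one on its strand rose, as did 2 of 3 divergent loci. Of 6 antisense loci 1 rose, which is near the share of all loci. It was LXLOC_047923, antisense to HFE beside H4C3 (1.16). The list counted 10 rises under each scaling tried, 5 and 6 without vehicle replicates 1 and 2, 0 without either JQ1 library, and 6 when low loci were also tested. The strongest cases lay beside H2BC11 (HIST1H2BJ), H2BC17 (HIST1H2BO) and H2BC18 (HIST2H2BF), all genes for histone H2B. Their RefSeq promoters (GRCh38.p14, 250 bases before to 50 after the start) are shown because they carry the octamer ATTTGCAT or ATGCAAAT, known as the site of the transcription factor OCT1 in H2B promoters. Octamers and TATAAA or TTTATA, the TATA letters on either strand, are in capitals, and where TTTATA and TATAAA overlap they run together.
H2BC11, chr6:27132746-27133045, minus strand: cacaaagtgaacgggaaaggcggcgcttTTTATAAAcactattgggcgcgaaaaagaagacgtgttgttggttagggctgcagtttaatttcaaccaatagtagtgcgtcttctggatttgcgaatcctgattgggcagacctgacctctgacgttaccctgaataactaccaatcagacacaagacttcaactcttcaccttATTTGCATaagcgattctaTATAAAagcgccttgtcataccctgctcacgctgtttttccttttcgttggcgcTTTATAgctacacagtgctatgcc
H2BC17, chr6:27893175-27893474, plus strand: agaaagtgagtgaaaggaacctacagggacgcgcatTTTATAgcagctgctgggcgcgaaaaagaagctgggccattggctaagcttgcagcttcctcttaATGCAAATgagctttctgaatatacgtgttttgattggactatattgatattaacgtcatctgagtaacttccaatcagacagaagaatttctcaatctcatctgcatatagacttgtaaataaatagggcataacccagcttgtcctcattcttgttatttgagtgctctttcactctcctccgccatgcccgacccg
H2BC18, chr1:149812321-149812620, minus strand: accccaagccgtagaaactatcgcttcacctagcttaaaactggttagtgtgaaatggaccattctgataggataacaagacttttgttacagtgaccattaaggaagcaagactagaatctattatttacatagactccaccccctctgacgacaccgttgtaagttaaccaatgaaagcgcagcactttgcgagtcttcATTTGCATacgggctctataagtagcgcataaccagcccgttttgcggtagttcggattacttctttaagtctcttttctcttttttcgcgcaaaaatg

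Counted from the transcription start, the octamer begins at position -47 in H2BC11 and -49 in H2BC18, where it reads ATTTGCAT, and at -149 in H2BC17, where it reads ATGCAAAT. Of 35116 RefSeq promoters of this length 1.77% hold the octamer on either strand and 11.5% the TATA letters. Among 68 promoters of histone genes the shares were 39.7% and 66.2%. These matches describe the sequence only.

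AL021807.1 (chromosome 6, 27122657 to 27123221, minus strand), downstream of H2BC11, was at 1.37 and 1.14 FPKM with vehicle and 8.02 and 8.66 FPKM with JQ1 (log2 change 2.33, SE 0.10, adjusted p = 0.00262). LXLOC_047960 beside it went from 2.69 and 1.74 FPKM to 10.7 and 10.2 FPKM. LXLOC_046445 (chromosome 6, 27895950 to 27902121, plus strand), after H2BC17, went from 1.71 and 1.63 FPKM to 4.94 and 5.80 FPKM (1.43, SE 0.10, adjusted p = 0.00615). AC243772.2 (chromosome 1, 149785659 to 149793020), on the strand of H2BC18, was near 0 with vehicle, at 0.06 and 0.05 FPKM, and at 1.18 and 1.29 FPKM with JQ1. LXLOC_047962, antisense to the H2A gene HIST1H2AG next to H2BC11, was at 0.98 and 0.99 FPKM with vehicle and 0.96 and 0.96 FPKM with JQ1, a log2 change of -0.02 that did not pass (adjusted p = 0.857).

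Rises also came in runs along a strand. Tested loci with no coding gene over them on their strand were assigned to the coding gene that ends before them, and 57 genes had at least 5 such loci within 200 kb, 378 loci in all. Calls went only up after 22 of these genes, only down after 10, both ways after 3, and 22 had none. After BCKDHB, a gene of branched amino acid breakdown, 8 of 9 tested loci rose, and after KITLG, the ligand of the receptor KIT, 8 of 9 rose, where 10.8% of all tested loci did. The vehicle mean was under the minimum for 5 of those after BCKDHB and 6 of those after KITLG, so these counts are partly set by it. All 7 tested after HIST1H2BO rose, 1 of them with such a vehicle mean, the farthest 57.7 kb from the gene. LXLOC_013638, the KITLG locus farthest out at 108.7 kb, was at 0.25 and 0.38 FPKM with vehicle and 1.04 and 1.02 FPKM with JQ1 (log2 change 0.91, adjusted p = 0.0132). LXLOC_013648, at 2.11 and 2.19 FPKM with vehicle and 2.58 and 2.73 FPKM with JQ1, was the 1 locus of that run not called (0.25, adjusted p = 0.0938).

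After CT83, a cancer-testis antigen gene on chromosome X, 14 loci were tested and 6 rose, all 6 of them more than 75 kb out and with a vehicle mean under the minimum, so that they could be tested only by being high with JQ1. LXLOC_060511, 2.45 kb from the gene end, was at 1.94 and 2.02 FPKM with vehicle and 1.68 and 1.88 FPKM with JQ1 (-0.12, adjusted p = 0.382). LXLOC_060500, 167.7 kb out, was at 0.18 and 0.23 FPKM with vehicle and 0.98 and 1.06 FPKM with JQ1 (1.11, SE 0.11, adjusted p = 0.00864). The 8 nearer loci were not called. Loci of a run share libraries and may be pieces of 1 transcript.

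The run with the most loci fell. After PCDH10, a protocadherin gene on chromosome 4, 26 loci of the plus strand lay between 57.6 and 195.1 kb from the gene end, and 23 of them fell, with a median of -0.75. The JQ1 mean was under the minimum for 12 of the 26. LXLOC_041384 fell most, from 1.52 and 1.07 FPKM to 0.26 and 0.12 FPKM (-1.38, SE 0.18, adjusted p = 0.0134). LXLOC_041385 next to it went from 3.15 and 2.94 FPKM to 1.11 and 1.12 FPKM. The 3 that were not called were LXLOC_041398, LXLOC_041399 and LXLOC_041402, at -0.65, -0.11 and -0.36. After ACTR3C 6 of 8 fell, and 2 of the 8 had a JQ1 mean under the minimum. Of all tested loci 14.2% fell. Counted by megabase, 17 of 18 loci fell between 161 and 162 Mb of chromosome 3, near the inner ear protein gene OTOL1, with a median of -0.90. How many loci of that window had a JQ1 mean under the minimum was not counted. Such runs count 1 region many times in any total of loci.

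**Figure D3:**
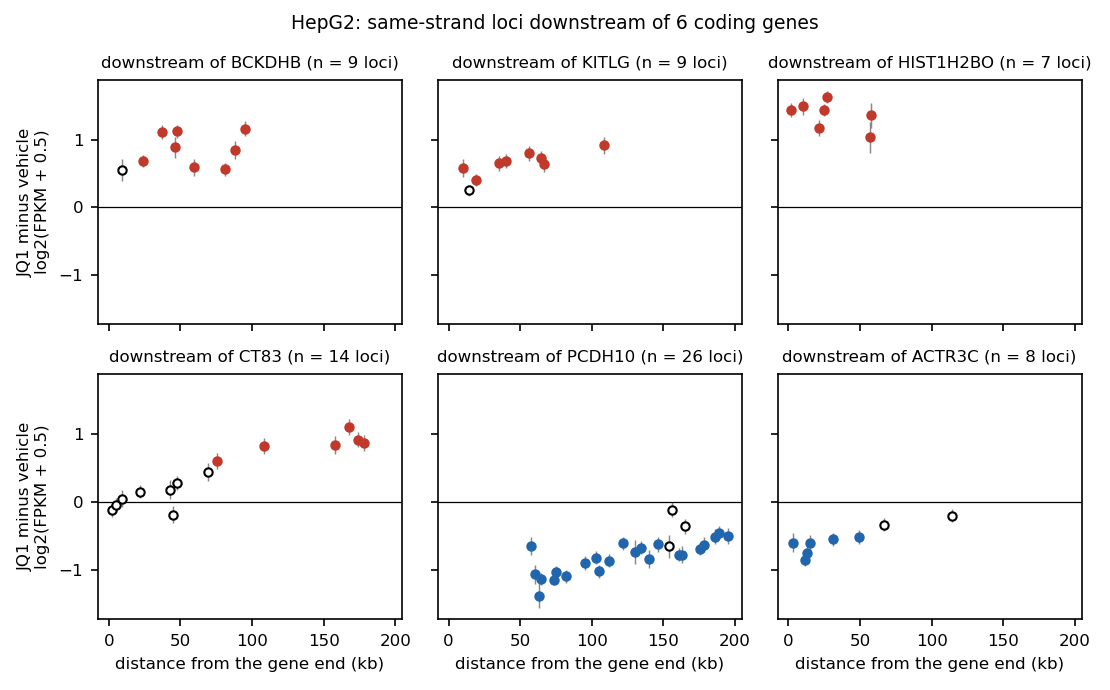
Log2 difference, JQ1 minus vehicle, with its standard error, of same-strand HepG2 loci against their distance in kb from the end of the coding gene before them, for 6 genes. Filled points passed an adjusted p of 0.05 (red higher, blue lower) and open points did not; loci after BCKDHB, KITLG and HIST1H2BO lie above 0, the 6 called after CT83 lie farthest from it and had a vehicle mean under the minimum, and those after PCDH10 and ACTR3C lie below 0.

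Position against coding genes gave smaller contrasts. Loci that start within 5 kb after a coding gene on its strand, which can hold RNA from polymerases that pass the gene's end, had 58 rises and 37 falls among 388, a median of 0.054. Antisense loci had 136 rises and 219 falls among 1442 (-0.028, and 0.011 after centring). Loci divergent from a coding start, which share a promoter region with that gene, had the lowest share called of the position classes, with 15 rises and 33 falls among 317, or 15.1% against 25.1% of all. Intergenic loci were called in 29.7% of 1898. Distance past the coding gene's end was taken for all loci with no coding gene over them on their strand. This set is wider than the 388 above, since antisense and divergent loci are included. Rises made up 13.9% of 631 loci within 5 kb, 14.3% at 5 to 20 kb, 12.2% at 20 to 50 kb, 10.9% at 50 to 100 kb and 9.41% at 100 to 200 kb. Falls over the same steps were 11.3%, 11.2%, 14.5%, 15.2% and 17.6%. The steps from 50 to 200 kb include the run after PCDH10, where 23 of 26 loci fell, so part of the climb in falls comes from 1 region. Locus length ran with direction too, since loci up to 1 kb long had 117 rises and 91 falls among 1264, and those over 50 kb had 40 rises and 106 falls among 572. Chromosome 6 had 66 rises and 39 falls among 319, and 15 of the rises lay between 27 and 28 Mb, where histone genes lie. Chromosome 3 had 12 rises and 51 falls among 299, and 17 of the falls lay in the window of 161 to 162 Mb. No test of these differences was made.

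**Figure D4:**
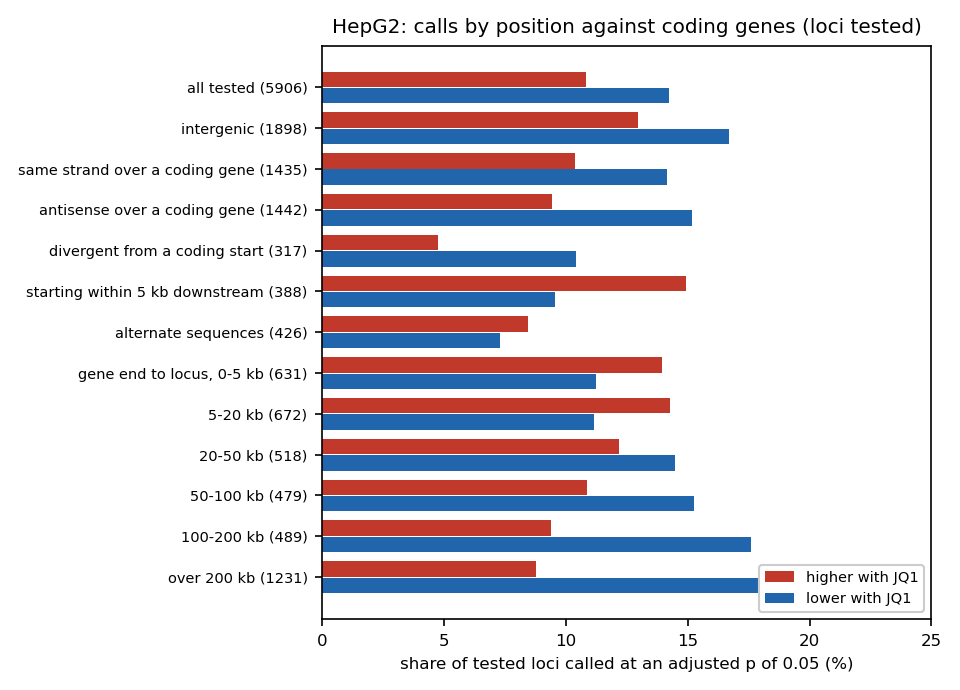
Bars give the share of tested HepG2 loci called higher (red) or lower (blue) with JQ1, in percent, by position against coding genes and, in the lower 6 rows, by distance from the end of the nearest coding gene before the locus on its strand, with the number tested in brackets. Rises fall from 13.9% within 5 kb to 9.41% at 100 to 200 kb while falls climb from 11.3% to 17.6%. The steps from 50 to 200 kb include the run after PCDH10, where 23 of 26 loci fell.

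On the log2(FPKM + 0.5) scale the largest fall among loci with a gene symbol was that of CPS1-IT1 (chromosome 2, 210617571 to 210619876), inside the gene of the first urea cycle enzyme, from 6.84 and 6.79 FPKM to 1.33 and 1.22 FPKM (log2 change -2.04, SE 0.082, adjusted p = 0.00262). Next came LINC00963, an intergenic lncRNA, from 21.2 and 20.1 FPKM to 4.98 and 5.45 FPKM. SNHG26, a host of small nucleolar RNAs, fell from 12.9 and 12.1 FPKM to 3.30 and 4.13 FPKM. At FOXF1, a forkhead factor of lung and gut mesenchyme, both measures of the divergent transcript fell, FENDRR from 8.29 and 9.14 FPKM to 2.71 and 2.88 FPKM, and LXLOC_022308 at the same coordinates from 5.79 and 5.59 FPKM to 1.29 and 1.34 FPKM. FOXF2-DT, intergenic beside the related gene FOXF2, fell from 2.54 and 2.92 FPKM to 0.85 and 0.85 FPKM. LXLOC_007094 on chromosome 10 (47956405 to 47991877), after FAM25C, was the most abundant of the strong falls, from 79.5 and 80.0 FPKM to 20.8 and 21.4 FPKM (-1.89, SE 0.065, adjusted p = 0.00194), and its overlapping partner AC245041.2 fell with it (-1.64). LXLOC_044587 near CNOT6 and LXLOC_044279 over SPINK13 fell by 1.87 and 1.83 on the log2 scale.

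The other largest falls were antisense or intergenic. PRR7-AS1 (-1.58), BACE1-AS (-1.38), DLGAP1-AS2 (-1.30) and DNAH17-AS1 (-1.29) are antisense loci, the second opposite the gene of the beta-secretase. NTRAS (-1.48), LINC01182 (-1.39) and HISLA (-1.31) are intergenic. LINC01182 was close to 0 with JQ1, at 0.14 and 0.12 FPKM against 0.94 and 1.38 FPKM with vehicle, and with a pseudocount of 0.1 its fall was larger than that of CPS1-IT1, -2.43 against -2.33. NDUFA6-DT (1.31) and CD27-AS1 had the largest rises among loci with a symbol away from small RNA and histone genes. CD27-AS1 went from 1.69 and 0.82 FPKM to 4.18 and 3.71 FPKM (1.38, SE 0.26, adjusted p = 0.0269). EMC1-AS1 (1.21), ADAMTSL4-AS1 (1.15), LINC02804 (1.11), LINC00310 (1.01), PDC-AS1 (0.97), NUP50-DT (0.94), LINC02256 (0.93) and LINC00052 (0.87) followed, with NEAT1 (0.98) among them. ADAMTSL4-AS1 overlaps MCL1, an anti-apoptotic gene, on its strand, by an extent that was not measured. Between 150 and 151 Mb of chromosome 1, 5 of 7 tested loci rose, ADAMTSL4-AS1 included.

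Among abundant lncRNAs with a symbol the changes were smaller. NEAT1, the scaffold of paraspeckles, was at 95.2 and 88.8 FPKM with vehicle and 169.6 and 194 FPKM with JQ1 (0.98, SE 0.098, adjusted p = 0.00864). PVT1, next to MYC, was at 89.7 and 92.5 FPKM and at 55.1 and 58.0 FPKM. The small nucleolar RNA hosts SNHG16 (-0.38), SNHG17 (-0.57) and SNHG4 (-0.50) fell and SNHG12 (0.40) rose, while GAS5 (-0.12, adjusted p = 0.276) and SNHG29 (-0.08, adjusted p = 0.433), did not pass. With quantile normalization GAS5 passed (-0.41, adjusted p = 0.0424). CYTOR (-0.47) and MIR4435-2HG (-0.50) fell, but they are near-identical copies, and reads may be split between them. IGFL2-AS1 rose (0.62). MALAT1 was at 1700 and 1593 FPKM with vehicle and 1798 and 1722 FPKM with JQ1 (0.10, adjusted p = 0.436), and its difference was -0.11 with quantile normalization.

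Some of these RNAs are precursors of microRNAs, short regulators whose bases 2 to 8, the seed, set their targets. Of 94 tested loci with a RefSeq hairpin inside them on their strand 22 fell (23.4%), 9 rose (9.57%) and 63 were not called, beside 14.2% and 10.8% of all loci. The median was -0.018, and 0.021 after centring. Only the long precursor loci were measured, and the mature microRNAs were not. Some hosts of the let-7 seed family fell, some rose and others were not called. The mature sequences (RefSeq, GRCh38.p14) are given 5′ to 3′ with the seed in capitals, grouped by seed and with their hosts.
let-7c-5p, MIR99AHG: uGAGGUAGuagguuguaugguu
let-7a-5p, MIR100HG and MIRLET7BHG: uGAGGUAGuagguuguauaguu
let-7b-5p, MIRLET7BHG: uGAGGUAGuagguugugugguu
miR-99a-5p, MIR99AHG: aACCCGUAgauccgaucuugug
miR-100-5p, MIR100HG: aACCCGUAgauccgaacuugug
miR-125b-5p, MIR100HG: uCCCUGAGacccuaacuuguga
miR-17-5p, MIR17HG: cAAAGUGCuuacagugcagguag
miR-20a-5p, MIR17HG: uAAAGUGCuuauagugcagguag

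The let-7 members share the seed GAGGUAG, known for silencing growth genes, and miR-99a and miR-100 share ACCCGUA. MIR99AHG fell from 16.5 and 14.7 FPKM to 7.08 and 6.85 FPKM (log2 change -1.11, adjusted p = 0.00697) and MIR100HG from 31.3 and 28.6 FPKM to 15.4 and 16.7 FPKM (-0.88, adjusted p = 0.00836). MIRLET7BHG, which holds the hairpins of let-7a-3 and let-7b, rose from 10.2 and 11.1 FPKM to 16.6 and 18.6 FPKM (0.70, adjusted p = 0.0127). MIRLET7A1HG (-0.02, adjusted p = 0.914) and LXLOC_055529 (-0.10, adjusted p = 0.356), both with let-7a-1, and MIRLET7IHG (-0.25, adjusted p = 0.132) were not called. MIR17HG, the host of 6 hairpins known to promote growth, among them miR-17 and miR-20a with the seed AAAGUGC, fell from 8.55 and 8.37 FPKM to 4.15 and 4.35 FPKM (-0.92, adjusted p = 0.00705). LXLOC_015193, with the hairpins of miR-15a and miR-16-1, which are known to hold back the cell cycle, rose from 3.65 and 3.43 FPKM to 6.09 and 6.29 FPKM (0.73, adjusted p = 0.00977). DLEU2, the annotated locus with the same hairpins, was at 6.13 and 4.64 FPKM with vehicle and 6.37 and 6.30 FPKM with JQ1 (0.23, adjusted p = 0.300). Both loci with miR-29 hairpins named here fell, LXLOC_052022 from 10.1 and 9.72 FPKM to 6.22 and 6.14 FPKM and LXLOC_005027 from 1.21 and 1.26 FPKM to 0.66 and 0.67 FPKM.

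Coding genes themselves were not in the table, so 14 lists of coding genes were read through the loci that overlap them or start within 10 kb, histones being 1 of the lists. Such a locus need not follow its neighbour. Each count below stands beside 10.8% of all tested loci higher and 14.2% lower, and the lists are so small that several lie near those shares. For BET proteins and elongation factors 3 loci are described and no count is given. AC142472.1, divergent from HEXIM1, the inhibitor of P-TEFb, fell from 1.11 and 0.96 FPKM to 0.51 and 0.41 FPKM (-0.68, SE 0.11, adjusted p = 0.0201). AC138150.2, antisense to its paralog HEXIM2, fell from 1.63 and 1.29 FPKM to 0.66 and 0.63 FPKM (-0.77). LXLOC_041104 on the strand of AFF1, a super elongation complex scaffold, fell (-0.35, adjusted p = 0.0343).

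For MYC and its network 1 of 12 loci fell and 0 rose, LXLOC_045996 antisense to the nucleolar protein gene NPM1 (-0.73). Near cell cycle genes 4 of 15 fell and 1 rose. ENSG00000287932 over CDK6, a G1 kinase gene, fell from 2.48 and 2.37 FPKM to 1.14 and 1.05 FPKM, and LXLOC_046324 over the S phase factor gene E2F3 fell (-0.45). LXLOC_024021, after the mitotic kinase gene AURKB, rose from 0.19 and 0.24 FPKM to 0.92 and 0.87 FPKM (0.96, adjusted p = 0.0107). The p53 targets had 2 rises and 2 falls among 6, LXLOC_023459 near PPM1D going from 1.20 and 0.46 FPKM to 3.56 and 3.32 FPKM (1.62), AL133445.2 over SUSD6 higher (0.71), XPC-AS1 lower (-0.72) and LXLOC_053112, also counted at the cyclin gene CCNE2, lower (-0.51).

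Liver lists were small in this table. Loci near genes of liver metabolism and transport had 2 rises and 2 falls among 8, with LXLOC_040952 at the glucuronosyltransferase gene UGT2B7 falling from 1.06 and 1.25 FPKM to 0.31 and 0.33 FPKM (-1.01). NDUFA6-DT, which runs across CYP2D6, a drug-oxidising P450, rose from 1.46 and 1.68 FPKM to 4.57 and 4.71 FPKM (1.31). Near genes of liver secreted proteins 0 of 8 passed, AL109811.3 near MASP2 having the smallest p (0.46, adjusted p = 0.0561). After centring it passed, at an adjusted p of 0.0319. NR2F1-AS1 fell among 4 loci near hepatocyte transcription factors (-0.75, adjusted p = 0.024), and MCM3AP-AS1, beside the sterol synthesis gene LSS, among 7 near cholesterol and fatty acid genes (-0.74).

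HOX genes, the body axis factors, had 3 falls and 0 rises among 13 loci (median -0.31, and -0.27 to -0.35 under the other scalings). LXLOC_023295 antisense to HOXB3 went from 2.42 and 1.57 FPKM to 0.64 and 0.55 FPKM, HOXA10-AS from 1.42 and 1.31 FPKM to 0.63 and 0.58 FPKM, and AC012531.1 at HOXC4 fell by 0.47 on the log2 scale. The call of AC012531.1 was lost after centring, at an adjusted p of 0.0625, and with quantile normalization, at 0.0693. Growth factor signalling had 3 falls and 0 rises among 9. LXLOC_019865, antisense to IGF1R, the receptor of insulin-like growth factor, went from 1.30 and 1.28 FPKM to 0.18 and 0.16 FPKM (-1.42, SE 0.098, adjusted p = 0.00615). AC092807.3 over DDAH1 near CCN1 (-0.62) and AC013564.1 over SMAD6 (-0.51) were the others. Near hypoxia genes 3 of 10 fell and 1 rose, with HK2-DT, at the hexokinase gene HK2, going from 1.98 and 2.30 FPKM to 0.83 and 0.82 FPKM (-0.99), ADM-DT lower (-0.58) and LXLOC_002572, antisense to the oxygen sensor gene EGLN1, higher (0.55). The 3 falls became 1 after centring and with quantile normalization, ADM-DT having an adjusted p of 0.051 after centring. Among 12 loci near inflammatory genes 2 fell and 0 rose, IRF1-AS1 (-1.09) and WAKMAR2, opposite the NF-kappaB inhibitor gene TNFAIP3 (-0.95). The unfolded protein and amino acid stress list had 1 rise and 1 fall among 13. AL671762.1 rose from 20.99 and 19.9 FPKM to 36.6 and 41.9 FPKM (0.92). It overlaps both the heat shock gene HSPA1B and the gene C6orf48 on their strand, so its rise cannot be assigned to either. LXLOC_010252, divergent from the transporter gene SLC3A2, fell (-0.84).

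The HepG2 response was then set against that of LM3. Of the 1480 loci called in HepG2, 290 were below the minimum in LM3 and 1190 were tested in both lines. Of those 1190, 710 were called in LM3 in the same direction, or 59.7% of these HepG2 calls, and 64.8% of the 1096 LM3 calls among loci tested in both. Of all loci tested in both 21.8% were called in LM3 and 23.6% in HepG2, in either direction. Of all 6474 loci tested in LM3 23.3% were called. The 2 called in opposite directions, named after their values were seen, were LXLOC_007487 (-0.39 in HepG2 and 0.59 in LM3) and LXLOC_016287 (0.51 and -1.07). Among the 871 loci below the minimum in LM3, 94 rose (10.8%) and 196 fell (22.5%), where falls made up 12.8% of loci tested in both. The difference of the responses, fitted over all 8 libraries, passed for 11 of 5035 loci (0.218%), with 604 at an unadjusted p under 0.05. It passed for 3 loci without LM3 JQ1 replicate 2 and for 0 without any other single library or with overlapping loci left out.

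Of the 11 loci, 4 lay in or beside the U2 array and rose further in HepG2. LINC00910 rose 3.09 in HepG2 and 1.55 in LM3 on the log2 scale, from 4.69 and 5.04 FPKM to 15.0 and 15.5 FPKM in LM3 (difference 1.54, SE 0.11, adjusted p = 0.00938). The antisense IGF1R locus LXLOC_019865 started higher in LM3, at 4.67 and 4.68 FPKM, and fell further there (-2.67, difference 1.25, adjusted p = 0.0145). PAX8-AS1, antisense to the transcription factor gene PAX8, fell in both lines, by 0.64 in HepG2 and from 5.39 and 4.91 FPKM to 0.96 and 0.78 FPKM in LM3 (difference 1.40, SE 0.14, adjusted p = 0.0234). RPL26L1-AS1, opposite a ribosomal protein gene, was at 1.99 and 1.99 FPKM with vehicle and 2.18 and 2.33 FPKM with JQ1 in HepG2, and fell in LM3 (difference 1.00, adjusted p = 0.028). LXLOC_013055 on chromosome 12 was the 1 locus with the lower response in HepG2, from 1.76 and 1.92 FPKM to 7.29 and 7.05 FPKM there and from 4.52 and 4.15 FPKM to 31.5 and 33.2 FPKM in LM3 (difference -1.05, adjusted p = 0.028). CASC19 of the 8q24 region fell in HepG2 from 36.5 and 35.1 FPKM to 13.7 and 16.1 FPKM (-1.24), and its difference from LM3 did not pass.

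**Figure D5:**
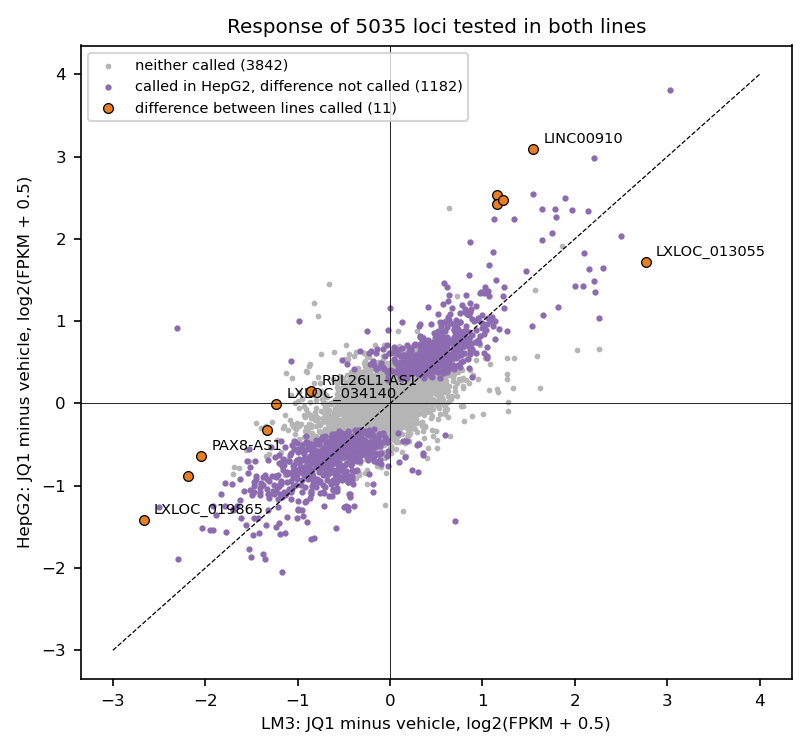
Log2 difference, JQ1 minus vehicle, in HepG2 against that in LM3 for 5035 loci tested in both lines, with the dashed line marking equal responses. Orange points are the 11 loci whose responses differed between lines at an adjusted p of 0.05, among them LINC00910 at 3.09 and 1.55, and purple points (1182) were called in HepG2 without such a difference.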

How the data were processed

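The authors deposited FPKM values with 2 decimals, as the column headers name them, for HepG2 and LM3 separately. The submitters' processing notes list Bowtie 0.12.2 and 2 builds, hg19 and mm8, but state no role for them. The coordinates are those of GRCh38, since 85.7% of 14860 Ensembl IDs had the same start in GENCODE 29. Not given in the sources used here are the counting tool, its strand setting, how LXLOC loci were defined, and the read depth, so counting error per locus is unknown. The response was fitted as log2(FPKM + 0.5) with limma 3.58.1 under R 4.3.3, with trend and robust fitting, for loci averaging 0.5 FPKM or more, two-sided, with Benjamini-Hochberg adjustment over all loci tested and a threshold of 0.05. This scale understates changes of low loci. A pseudocount of 0.1 or 1, other filters and scalings, a replicate block, left-out libraries and left-out overlapping or alternate sequences were tried. The fit was tested on simulated data. Neighbouring genes came from GENCODE 29, with a distance limit of 10 kb.

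Named loci were those called, with groups apart and at least 1 FPKM in the higher group: the 12 largest rises and falls with a symbol, the 6 most abundant with a symbol and the 4 largest among LXLOC or clone-named loci, in each direction. Added were the 8 most abundant loci with a symbol outside ribosomal RNA and mitochondrial loci, the 3 called loci of smallest p per coding gene list (1 where none was called) and, in each direction, the 5 loci with a symbol and the smallest adjusted p for the difference between lines. A result of the BET and elongation list is not reported here. Any other locus was named after its values were seen. The members and lists were chosen with earlier results of these data known, and the small RNA lists, microRNA loci, downstream runs and megabase windows after their values were seen. Tables were handled in pandas 2.3.3 and NumPy 2.4.6 under Python 3.11.15, and plots drawn with matplotlib 3.10.9.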

Additional observations from a re-analysis of the deposited data

Results flagged for a closer look

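In 11 loci the JQ1 response differed between HepG2 and LM3 in the limma fit over all 8 libraries. The differences, HepG2 minus LM3 on the log2 scale, were 1.54 for LINC00910, 1.38 for LXLOC_024647, 1.27 for LXLOC_024656 and 1.24 for LXLOC_024649, all in or beside the U2 array. They were 1.40 for PAX8-AS1 and 1.31 for LXLOC_030447, which overlap each other and are 1 region, 1.25 for LXLOC_019865, 1.22 for LXLOC_034140 over TSHZ2, 1.00 for RPL26L1-AS1, 1.01 for LXLOC_049444 and -1.05 for LXLOC_013055. LXLOC_034140 was at 1.06 and 0.95 FPKM with vehicle and 0.98 and 1.01 FPKM with JQ1 in HepG2, and fell in LM3 from 1.88 and 2.0 FPKM to 0.57 and 0.51 FPKM. LXLOC_049444 was at 0.62 and 0.63 FPKM with vehicle and 0.40 and 0.40 FPKM with JQ1 in HepG2 (adjusted p = 0.096). With vehicle, PAX8-AS1, LXLOC_030447, LXLOC_019865 and LXLOC_049444 were lower in HepG2 than in LM3. The log2(FPKM + 0.5) scale understates changes of low loci, so the size of their differences depends partly on the scale.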

How the results depend on the processing

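The 1480 calls in HepG2 became 852 without the filter on low values (333 higher, 519 lower) and 975 at a mean of at least 1 FPKM, where 548 were lower. Lower calls were 547 without overlapping loci. Leaving out 1 HepG2 library gave 0 to 519 calls, 0 to 205 higher and 0 to 327 lower. The replicate block gave 1453 calls, and deviations of same-numbered libraries had r = -0.0345, so the numbers were not taken to pair samples. Under the block the adjusted p was 0.0579 for SNHG16 and 0.0655 for LXLOC_041104. The difference between lines was called at 11 loci, 7 with a pseudocount of 0.1 (6 higher), 19 with 1 (16 higher, 3 lower), 94 without the filter (67 higher, 27 lower), 7 at 1 FPKM (6 higher), 20 centred (6 lower), 5 after quantile normalization (4 higher), 6 lower once ribosomal and mitochondrial loci left the scale, and 0 with the replicate block or without overlapping loci, limma's unadjusted p being under 0.05 for 505 and 390 loci. Leaving out 1 library gave 0 to 3, 0 to 3 higher and 0 lower. Of the named loci 15 lost their call without the filter on low values and 74 without either JQ1 library. Leaving out alternate sequences was chosen after seeing the data and gave 1454 calls in HepG2 and 13 for the difference.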
